A study of Mus musculus with 8 samples.

Results

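The respiratory chain is described here through 89 nuclear genes, chosen by symbol from 19938 genes measured as 1 symbol each. They are the genes whose symbols start with Nduf, Uqcr, Cox4 to Cox8 or Atp5, and Sdha to Sdhd. They comprise 36 complex I subunits, 7 complex I assembly factors of the Ndufaf series, 4 genes of complex II, 8 of complex III, 17 of complex IV and 17 of complex V. Each gene is given by 1 row of the array table, the one with the highest mean over the 8 arrays. Where 17 of the genes had further rows, no row was called in the opposite direction.

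RNA came from splenic XCR1+ dendritic cells of mice that were not treated and that carry the Il12b-EYFP reporter, in which yellow fluorescence follows the Il12b gene. XCR1+ dendritic cells carry CD8α in the mouse spleen and are known for presenting antigen taken from other cells to CD8 T cells. All 3 fractions were sorted as Lin-, Bst2-/low, CD11c high and CD8α+. The immature fraction was CCR7- and EYFP- (n = 3 arrays), the fraction called CCR7+Il12b- was CCR7+ and EYFP- (n = 3), and the fraction called CCR7+Il12b+ was CCR7+ and EYFP+ (n = 2). Maturing dendritic cells put the chemokine receptor CCR7 on their surface, and the study asked how the cells that mature without infection differ from the others. The labels do not give the age or number of the mice or say whether samples were pooled, and p-values here reflect only how these arrays scatter, which may be technical.

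Of the genes behind the sort, Ccr7 followed the labels and Il12b did so in part. Ccr7 lay between 8.50 and 8.86 on the log2 scale in immature cells, between 12.20 and 12.24 in CCR7+Il12b- cells and at 12.46 and 12.77 in CCR7+Il12b+ cells. Il12b, whose reporter set the EYFP gate, lay between 6.88 and 7.11 in immature cells, between 10.77 and 10.84 in CCR7+Il12b- cells and at 12.35 and 12.22 in CCR7+Il12b+ cells. The fraction labelled Il12b- thus held more Il12b signal than immature cells (log2 3.78, SE 0.11), which goes against its name, and the name stands here only for the absence of EYFP at the sort. Between the CCR7+ fractions Il12b differed by 1.48 (SE 0.12). Xcr1 fell from between 10.82 and 10.98 in immature to between 8.94 and 9.85 in CCR7+Il12b- and to 8.12 and 7.64 in CCR7+Il12b+ cells.

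All 10 listed markers of XCR1+ dendritic cells had a group mean above a background mark of 4.98, the level under which 95% of the odorant and vomeronasal receptor genes lay. The mean of these markers ran from 10.2 to 10.3 on the immature, 9.59 to 9.96 on the CCR7+Il12b- and 8.93 to 9.15 on the CCR7+Il12b+ arrays. In CCR7+Il12b- cells 4 of them were lower than in immature cells and 1 was higher, and in CCR7+Il12b+ cells 7 were lower and 1 higher. Tlr3, a receptor for double-stranded RNA, had log2 differences of -2.23 (SE 0.31) and -4.82 (SE 0.34), and Batf3, a transcription factor of this lineage, was higher by 0.54 (SE 0.11) and 0.89 (SE 0.12). These markers moved across the same fractions as the genes below, and their part in the respiratory results was not tested.

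The respiratory chain sits in the inner mitochondrial membrane and passes electrons from nutrients to oxygen. Complex I takes them from NADH and complex II from succinate, complex III passes them from ubiquinone to cytochrome c, and complex IV hands them to oxygen. Complexes I, III and IV pump protons as they work, and complex V, the ATP synthase, lets the protons flow back to make ATP. Most subunits are encoded in the nucleus and imported, while a core set is encoded by mitochondrial DNA. In dendritic cells activated by microbial products, a shift of energy supply from respiration towards glycolysis has been described.

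Promoters of respiratory genes are known for sites of NRF1, ETS-family factors such as GABP, and YY1. RefSeq windows of assembly GRCm38.p6, from 250 bases before to 50 after each start, were at hand for 73 of the 89 genes, some with more than 1 start, which gave 78 windows of 300 bases. The NRF1 letters, GCGCA then any base then GCGC, searched on both strands, stood in 24.4% of these windows. They stood in 4.6% of all 32851 RefSeq windows, which also cover genes not tested here. They stood in 8.98% of the windows of 10278 genes above the background mark. The ETS letters CCGGAAG stood in 23.1%, 8.86% and 16.1% of the same sets, and the YY1 letters AAGATGGCG in 8.97%, 1.4% and 2.7%. The median GC content of the windows was 58.0% for respiratory genes, 52.7% for all RefSeq windows and 60.3% for genes above the mark. The ends of these motifs can share bases, such as AAG between the ETS and YY1 letters, and a match describes the letters only.

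The stretches of 170 bases just before the start are shown for 6 genes that cover all 5 complexes, 5' to 3' on the gene's strand, with NRF1 and ETS letters of either orientation in capitals. Ndufa5 carries a single NRF1 match, Sdha 3 of them, and Cox6a1 and Atp5h carry both motifs. Uqcr11 has an ETS match only, and Ndufc2, the complex I subunit with the steepest fall in CCR7+Il12b+ against immature cells, has neither motif in this stretch.
Ndufa5, chr6:24527691-24527860, minus strand: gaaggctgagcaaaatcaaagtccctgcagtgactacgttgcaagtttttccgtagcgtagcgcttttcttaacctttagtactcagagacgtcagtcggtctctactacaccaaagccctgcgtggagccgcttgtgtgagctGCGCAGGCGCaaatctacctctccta
Sdha, chr13:74350241-74350410, minus strand: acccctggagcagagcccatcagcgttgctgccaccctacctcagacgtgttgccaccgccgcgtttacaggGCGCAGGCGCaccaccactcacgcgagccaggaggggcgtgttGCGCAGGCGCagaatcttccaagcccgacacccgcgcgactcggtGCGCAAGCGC
Cox6a1, chr5:115348959-115349128, minus strand: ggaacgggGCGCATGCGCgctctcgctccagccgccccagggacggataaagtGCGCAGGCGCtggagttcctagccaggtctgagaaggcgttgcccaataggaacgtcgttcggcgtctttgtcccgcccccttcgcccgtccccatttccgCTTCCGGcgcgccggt
Atp5h, chr11:115419920-115420089, minus strand: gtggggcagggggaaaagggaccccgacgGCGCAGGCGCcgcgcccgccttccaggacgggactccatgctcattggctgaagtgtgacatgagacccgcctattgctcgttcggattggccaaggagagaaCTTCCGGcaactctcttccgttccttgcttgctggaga
Uqcr11, chr10:80406822-80406991, minus strand: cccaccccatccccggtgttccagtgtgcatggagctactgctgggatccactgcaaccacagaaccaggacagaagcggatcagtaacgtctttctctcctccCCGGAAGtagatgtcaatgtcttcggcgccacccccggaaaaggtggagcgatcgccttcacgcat
Ndufc2, chr7:97399833-97400002, plus strand: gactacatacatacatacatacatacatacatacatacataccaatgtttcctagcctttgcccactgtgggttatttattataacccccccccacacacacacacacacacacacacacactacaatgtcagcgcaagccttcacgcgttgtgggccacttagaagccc
The 18 genes with NRF1 letters in a window had median log2 differences against the immature fraction of -0.64 (CCR7+Il12b-) and -0.95 (CCR7+Il12b+). The 55 genes with a window but without these letters had -0.69 and -0.94. For the ETS letters the medians were -0.61 and -0.93 over 18 genes with them and -0.76 and -0.98 over 55 without. For the YY1 letters they were -0.87 and -1.32 over 7 genes with them and -0.66 and -0.94 over 66 without. The medians were thus close for NRF1, smaller in size with the ETS letters and larger with the YY1 letters, and none of these differences was tested. The motif groups also differed in make-up. Complex I gave 32 of the 73 genes with a window. It gave 5 of the 7 genes with YY1 letters, 4 of the 18 with ETS letters and 6 of the 18 with NRF1 letters. Motif and complex are thus mixed in these medians, and their parts were not tested.

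In CCR7+Il12b- cells, 67 of the 89 genes were lower than in immature cells and 0 were higher (limma, Benjamini-Hochberg adjusted p under 0.05 over all 19938 genes). Among all genes 14.5% were lower and 9.1% were higher, and among genes above the mark 22.1% and 13%. The median log2 difference was -0.63 over the respiratory genes and 0.06 over all genes. In CCR7+Il12b+ cells, 73 were lower than in immature cells and 0 were higher, where 17.9% of all genes were lower and 14.1% higher, and 27.1% and 19.3% of those above the mark. The median difference was -0.93 against 0.09 over all genes. At least 2-fold lower were 15 genes in CCR7+Il12b- cells, against 3.21% of all genes, and 36 in CCR7+Il12b+ cells, against 8.21%. Without immature replicate 3, 44 genes were lower in CCR7+Il12b- cells, and without immature replicate 1 a single gene, Cox6a2, was called higher in each fraction.

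Both comparisons share the 3 immature arrays. The falls were called in both fractions for 66 genes. Ndufv2 was called in CCR7+Il12b- cells alone, and Atp5b, Atp5e, Cox6b1, Cox6b2, Ndufa13, Ndufaf1 and Sdha in CCR7+Il12b+ cells alone, which does not show that the fractions differ in these genes. Among the 3 fractions, group means fell from immature to CCR7+Il12b- to CCR7+Il12b+ for 77 of 89 genes, an order found for 23.6% of all genes and 33.2% of those above the mark. The 12 others were Ndufv2, Ndufa4l2, Ndufaf3, Uqcrh and 8 genes of complex IV.

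**Figure D1:**
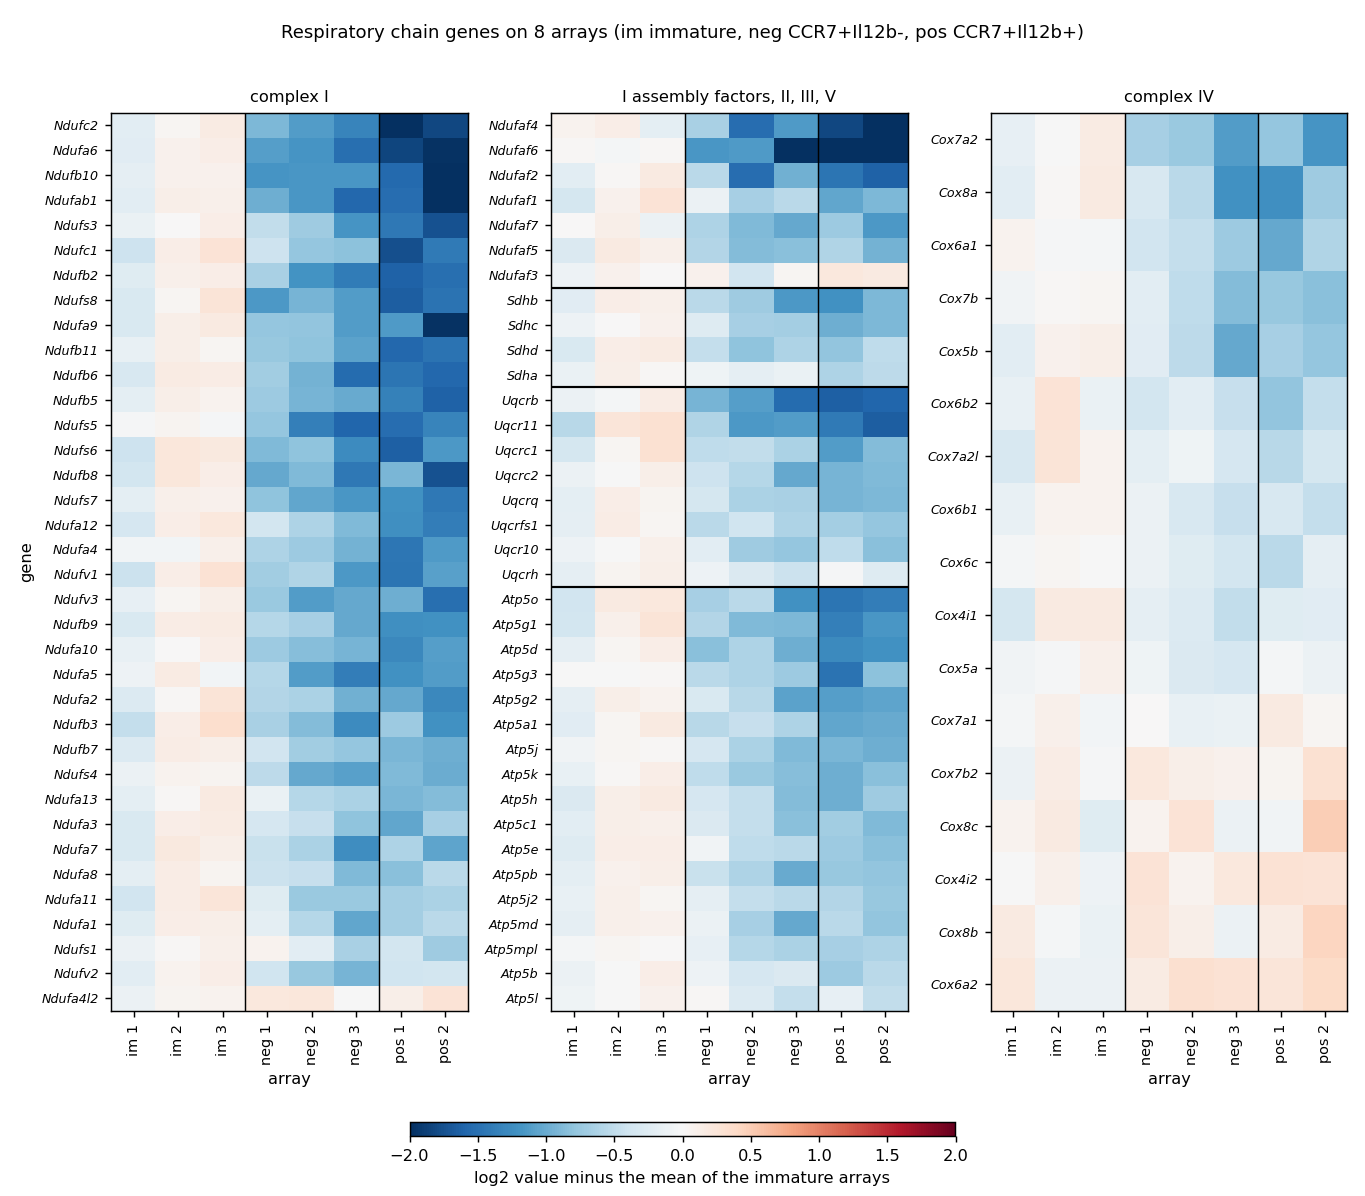
Each row is 1 respiratory chain gene and each column 1 array, and the colour gives the log2 value minus the mean of the 3 immature arrays, from -2 (blue) to 2 (red). Complex I rows are blue on nearly all CCR7+ arrays and darkest on the CCR7+Il12b+ arrays, while the lower rows of complex IV, with the tissue-restricted forms, stay pale.

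Array by array, the mean of the 86 respiratory genes above the mark, taken relative to the mean of the immature arrays, was -0.19, 0.09 and 0.10 on the immature arrays. It was -0.45, -0.66 and -0.87 on the CCR7+Il12b- arrays and -0.96 and -0.97 on the CCR7+Il12b+ arrays. The 3 groups did not overlap, and the lowest CCR7+Il12b- array, replicate 3, was the nearest to the CCR7+Il12b+ arrays. Over all genes tested, the same mean stayed between -0.03 and 0.01. In these bulk samples, fewer cells of a type and less RNA per cell cannot be told apart.

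**Figure D2:**
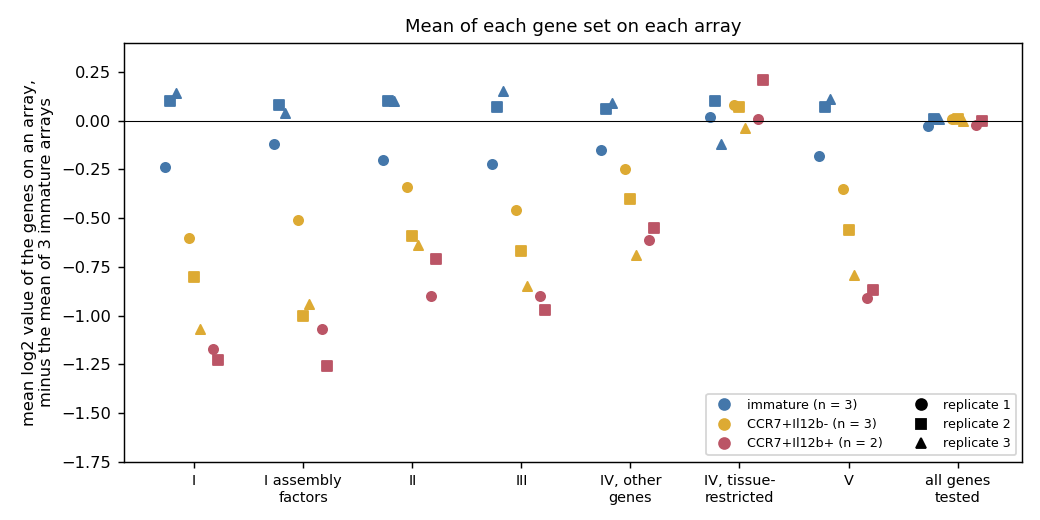
Points give the mean log2 value of a gene set on each of the 8 arrays minus the mean of the 3 immature arrays, with colour for the fraction and shape for the replicate number. In complex I the immature arrays lie between -0.24 and 0.14, the CCR7+Il12b- arrays between -1.07 and -0.60 and the CCR7+Il12b+ arrays at -1.17 and -1.23, while all genes tested stay near 0.

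By complex, the median log2 differences in CCR7+Il12b- and CCR7+Il12b+ cells were -0.85 and -1.28 for complex I, -0.58 and -0.80 for complex II, and -0.56 and -0.91 for complex III. They were -0.24 and -0.35 for complex IV and -0.60 and -0.85 for complex V. Complex IV had the smallest median in both fractions, a difference between complexes that was described and not tested.

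**Figure D3:**
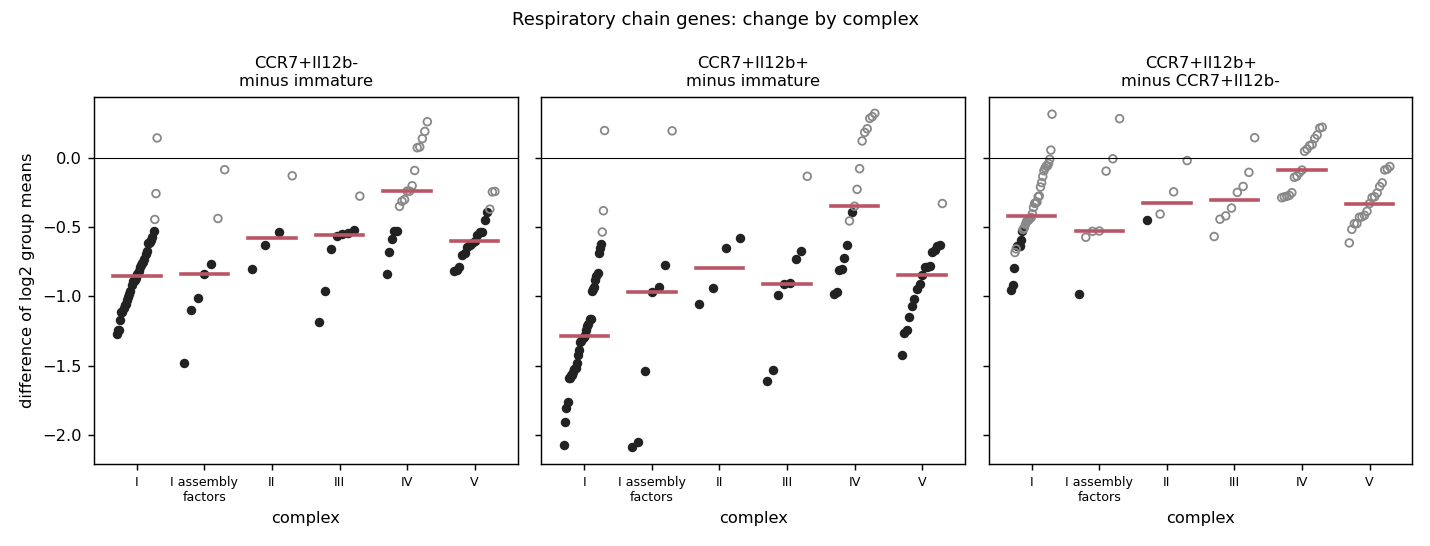
Each point is 1 gene, and the vertical axis is the difference of log2 group means in the 3 pairwise comparisons, by complex. Filled points passed the threshold, open points did not, and red bars are medians, which in complex I lie at -0.85, -1.28 and -0.42.

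Differences of single genes are given on the log2 scale against immature cells, first for CCR7+Il12b- and then for CCR7+Il12b+ cells. Complex I had the largest median fall in both fractions. Lower were 33 of its 36 genes in CCR7+Il12b- cells and 33 in CCR7+Il12b+ cells, 11 and 24 of them at least 2-fold. Ndufc2, an accessory subunit of the membrane arm, read 10.31, 10.55 and 10.68 in immature cells, 9.62, 9.40 and 9.19 in CCR7+Il12b- cells, and 8.19 and 8.70 in CCR7+Il12b+ cells. No array of 1 fraction overlapped with another. Against immature cells it was 4.19-fold lower in CCR7+Il12b+ cells (log2 -2.07, SE 0.18, limma adjusted p = 6.5e-06) and lower, with a log2 difference of -1.11 (SE 0.16) in CCR7+Il12b- cells. Ndufa6, an accessory subunit of the LYR-motif family, read 8.79, 9.09 and 9.15, then 7.91, 7.83 and 7.50, then 7.18 and 7.03 in the same order. It too fell in steps without overlap, at -1.27 (SE 0.14) and -1.91 (SE 0.16).

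Ndufb10, another membrane-arm subunit, fell, with differences of -1.17 (SE 0.14) in CCR7+Il12b- and -1.80 (SE 0.15) in CCR7+Il12b+ cells. Ndufab1, the mitochondrial acyl carrier protein, which also serves fatty acid synthesis in the organelle, fell, with differences of -1.24 (SE 0.18) and -1.76 (SE 0.20). Ndufs5, a membrane-arm subunit on the intermembrane side, fell, with differences of -1.24 (SE 0.18) and -1.42 (SE 0.20). In none of these genes did an immature array overlap with a CCR7+ array, but they were named for their large changes, which favours such a gap. All arrays lay under the immature ones for 67 of the 89 respiratory genes in CCR7+Il12b- cells, against 19.2% of all genes. In CCR7+Il12b+ cells this held for 78 of the 89, against 23.6%.

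The catalytic core carries the flavin and most iron-sulfur clusters, and 6 of its nuclear subunits were measured. Ndufs3, Ndufs7 and Ndufs8, of the arm that reaches ubiquinone, were lower in both fractions, with log2 differences of -0.79, -1.0 and -1.06 in CCR7+Il12b- and -1.59, -1.32 and -1.56 in CCR7+Il12b+ cells. Ndufv1, which binds NADH and the flavin, read 7.09, 7.65 and 7.81 in immature, 6.82, 6.91 and 6.37 in CCR7+Il12b-, and 6.05 and 6.43 in CCR7+Il12b+ cells. It fell, with differences of -0.81 (SE 0.20, limma adjusted p = 0.0127) and -1.28 (SE 0.23), and the first of these calls was lost without immature replicate 2, immature replicate 3 or CCR7+Il12b- replicate 3 (adjusted p up to 0.061). The other subunits of the NADH-binding part had unlike values, and differences between genes were not tested. Ndufv3, a small subunit beside Ndufv1, fell, with differences of -0.96 (SE 0.15) and -1.24 (SE 0.17). Ndufv2 read 8.53, 8.80 and 8.87, then 8.33, 7.98 and 7.81, then 8.34 and 8.36. It was lower in CCR7+Il12b- cells, at -0.69 (SE 0.14), and in CCR7+Il12b+ cells the difference of -0.38 missed the threshold (95% interval -0.74 to -0.03, not adjusted for the number of genes, limma adjusted p = 0.0979). Ndufs1, the largest iron-sulfur subunit, differed by -0.26 (95% interval -0.64 to 0.12) and -0.54 (-0.96 to -0.11) and passed in neither fraction. The median over the 6 core genes was -0.80 and -1.30, beside -0.88 and -1.27 over the 30 accessory genes.

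Ndufa4, counted here by its symbol, is now regarded as a subunit of complex IV. It read 10.90, 10.90 and 11.05 in immature, 10.34, 10.22 and 10.01 in CCR7+Il12b-, and 9.51 and 9.81 in CCR7+Il12b+ cells. The groups did not overlap, and it fell, with differences of -0.76 (SE 0.12) and -1.29 (SE 0.14). Its hypoxia-linked relative Ndufa4l2 had group means under the background mark in all 3 fractions. Without Ndufa4, complex I had 32 of 35 genes lower in each fraction.

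Assembly factors build the complex and are not part of it when finished. Of the 7 Ndufaf genes, 5 were lower in CCR7+Il12b- cells and 6 were lower in CCR7+Il12b+ cells. Ndufaf4, which helps to build the ubiquinone-binding module, read 7.34, 7.41 and 7.08 in immature, 6.63, 5.75 and 6.14 in CCR7+Il12b-, and 5.45 and 4.93 in CCR7+Il12b+ cells. The groups did not overlap, and the differences were -1.10 (SE 0.21) and -2.08 (SE 0.24). Ndufaf6 read 6.92, 6.86 and 6.92, then 5.73, 5.76 and 4.78, then 4.85 and 4.85. Both CCR7+Il12b+ arrays lay under the mark, so it was at least 3.78-fold lower there than in immature cells (limma adjusted p = 5.84e-05), with the mark standing for these arrays. Ndufaf2, a factor of late assembly, fell, with differences of -1.01 (SE 0.21) and -1.54 (SE 0.23).

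Ndufaf7, a methyltransferase for a core subunit, fell, with differences of -0.84 (SE 0.14) and -0.93 (SE 0.16). Ndufaf1, of the complex that assembles the membrane arm, was lower in CCR7+Il12b+ cells, at -0.97 (SE 0.20). Ndufaf3, the partner of Ndufaf4, passed in neither fraction and read 7.93, 8.12 and 8.03, then 8.11, 7.65 and 8.06, then 8.23 and 8.21. The partners thus had unlike values, Ndufaf3 at -0.09 and 0.19 beside Ndufaf4 at -1.10 and -2.08. The difference between these genes was not tested.

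Complex II, which also works in the citric acid cycle, was lower for 3 of 4 genes in CCR7+Il12b- and for all 4 in CCR7+Il12b+ cells. Sdhb, the iron-sulfur subunit, read 8.40, 8.77 and 8.73 in immature, 8.09, 7.92 and 7.48 in CCR7+Il12b-, and 7.43 and 7.73 in CCR7+Il12b+ cells. Both CCR7+ fractions lay under the immature arrays and overlapped with each other, with differences of -0.80 (SE 0.17) and -1.05 (SE 0.19). The membrane anchors Sdhc and Sdhd fell, with differences of -0.53 (SE 0.13) and -0.63 (SE 0.15), and then at -0.94 (SE 0.15) and -0.65 (SE 0.17).

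Sdha, the flavoprotein that oxidises succinate, was called in CCR7+Il12b+ cells alone. It read 8.96, 9.21 and 9.13 in immature, 9.01, 8.92 and 8.97 in CCR7+Il12b-, and 8.48 and 8.57 in CCR7+Il12b+ cells. The first groups overlapped, with a difference of -0.13 (95% interval -0.36 to 0.10), and the CCR7+Il12b+ arrays lay under all others, at -0.58 (SE 0.12, limma adjusted p = 0.0027) against immature cells. The calls of Sdhc and Sdhd in CCR7+Il12b- cells were lost without immature replicate 3 or CCR7+Il12b- replicate 2, and the CCR7+Il12b- count of 3 then became 1. The fall of Sdhd in CCR7+Il12b+ cells was lost without CCR7+Il12b+ replicate 1 and after quantile normalization (adjusted p up to 0.0942).

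Complex III was lower for 7 of 8 genes in each fraction. Uqcrb, a small subunit near the ubiquinone site, read 9.15, 9.23 and 9.41 in immature, 8.33, 8.16 and 7.73 in CCR7+Il12b-, and 7.63 and 7.68 in CCR7+Il12b+ cells. The groups did not overlap, and the differences were -1.19 (SE 0.15) and -1.61 (SE 0.17). Uqcr11, the smallest subunit, fell, with differences of -0.96 (SE 0.22) and -1.53 (SE 0.25), with immature replicate 1 at 8.38 beside 9.18 and 9.23 and close to the highest CCR7+Il12b- array at 8.33.

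The core proteins Uqcrc1 and Uqcrc2 fell, with differences of -0.55 (SE 0.16) and -0.66 (SE 0.15) in CCR7+Il12b- cells and at -0.99 (SE 0.17) and -0.91 (SE 0.17) in CCR7+Il12b+ cells. Uqcrfs1, the Rieske iron-sulfur protein that hands electrons on to cytochrome c1, fell, with differences of -0.52 (SE 0.12) and -0.73 (SE 0.13). Uqcr10, another small subunit, fell, with differences of -0.56 (SE 0.16) and -0.67 (SE 0.18). In CCR7+Il12b- cells the calls of Uqcrc1 and Uqcr10 were each lost without any 1 of immature replicates 2 and 3 and CCR7+Il12b- replicates 2 and 3, and that of Uqcrc1 also after cyclic loess or quantile normalization (adjusted p up to 0.114 and 0.0936). In CCR7+Il12b+ cells the call of Uqcr10 was lost without CCR7+Il12b+ replicate 2 (adjusted p = 0.137). Uqcrh, the hinge protein, passed in neither fraction and read 11, 11.23 and 11.30, then 11.08, 10.88 and 10.74, then 11.16 and 10.92, with all 3 groups overlapping.

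In complex IV fewer genes were called. Of its 17 genes, 5 were lower in CCR7+Il12b- cells and 7 were lower in CCR7+Il12b+ cells, none of them 2-fold. Ndufa4, at -1.29 in CCR7+Il12b+ cells, was counted with complex I by its symbol and is not among the 17. Several complex IV subunits exist as a widely used form and a form restricted to muscle, testis or lung, and these were looked at apart. Of the 10 genes without the restricted forms, 5 and 6 were lower, with medians of -0.42 and -0.59. The 7 restricted forms, Cox4i2, Cox6a2, Cox6b2, Cox7a1, Cox7b2, Cox8b and Cox8c, had medians of 0.08 and 0.21, and 0 and 1 of them were lower. Cox7b2 and Cox8b had group means under the mark in all 3 fractions. Cox6b2 was the gene called, with 5.59, 6.01 and 5.61 in immature, 5.37, 5.52 and 5.27 in CCR7+Il12b-, and 4.95 and 5.26 in CCR7+Il12b+ cells, near the mark throughout, and the call was lost without CCR7+Il12b+ replicate 1 (adjusted p = 0.0869).

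Cox7a2, the widely used form of subunit 7a, read 8.86, 9.01 and 9.19 in immature, 8.36, 8.28 and 7.91 in CCR7+Il12b-, and 8.24 and 7.84 in CCR7+Il12b+ cells. Both CCR7+ fractions lay under the immature arrays, with differences of -0.84 (SE 0.15) and -0.98 (SE 0.17). Cox7a1, the form of heart and skeletal muscle, stayed between 5.0 and 5.33 on all 8 arrays. Cox6a1, the widely used form of subunit 6a, read 11.93, 11.83 and 11.82, then 11.47, 11.39 and 11.13, then 10.84 and 11.26. It fell, with differences of -0.53 (SE 0.14) and -0.81 (SE 0.15), where the muscle form Cox6a2 differed by 0.26 (95% interval -0.01 to 0.53) and 0.32 (0.02 to 0.62) and passed in neither fraction. Cox8a, Cox7b and Cox5b fell, at -0.68, -0.53 and -0.59 in CCR7+Il12b- and at -0.97, -0.80 and -0.72 in CCR7+Il12b+ cells.

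Cox4i1 and Cox5a, which are built in early around the mitochondrially encoded core, passed in neither fraction. Cox4i1 read 9.99, 10.52 and 10.53 in immature, 10.17, 10.07 and 9.86 in CCR7+Il12b-, and 10.11 and 10.12 in CCR7+Il12b+ cells. Immature replicate 1 lay inside the CCR7+ values, and the differences were -0.31 (95% interval -0.65 to 0.02) and -0.23 (-0.60 to 0.15), which were called without that array. Cox7a2l, which joins complexes III and IV into supercomplexes, also passed in neither by its brighter row, at -0.20 and -0.46. A second row of Cox7a2l was called lower in both fractions, at -0.36 and -0.52 (limma adjusted p over all rows = 0.0365 and 0.00744). The same held for Cox6c, another widely used subunit, with -0.24 and -0.35 by the brighter row, not called, and -0.50 and -0.58 by the second, called (adjusted p over all rows = 0.0103 and 0.00585, limma). Counting a gene as lower when any of its rows was called, complex IV had 7 of 17 genes lower in CCR7+Il12b- cells and 9 of 17 in CCR7+Il12b+ cells, and no other complex gained a gene. This fit over all rows also lost calls. Complex V had 13 genes lower in CCR7+Il12b- cells, where the main fit had 14. Complex I had 32 lower in CCR7+Il12b+ cells, where the main fit had 33.

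The complex IV counts rest on few arrays. In CCR7+Il12b- cells the count of 5 became 2 without immature replicate 2, without immature replicate 3 or without CCR7+Il12b- replicate 2, and 1 without CCR7+Il12b- replicate 3. In CCR7+Il12b+ cells the count of 7 became 3 without CCR7+Il12b+ replicate 1. The Cox7a2 calls held in all 20 alternatives, while Cox8a and Cox5b lost theirs in some in both fractions and Cox6a1 and Cox7b in CCR7+Il12b- cells.

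Complex V was lower for 14 of 17 genes in CCR7+Il12b- and 16 of 17 in CCR7+Il12b+ cells, 0 and 6 of them at least 2-fold. Atp5o, which ties the catalytic head to the stator stalk, read 9.65, 10.20 and 10.23 in immature, 9.36, 9.48 and 8.81 in CCR7+Il12b-, and 8.56 and 8.64 in CCR7+Il12b+ cells. The groups did not overlap, and the differences were -0.81 (SE 0.19) and -1.42 (SE 0.22). Atp5d, of the central stalk, fell, with differences of -0.82 (SE 0.13) and -1.24 (SE 0.14), and Atp5k, of the membrane part, at -0.70 (SE 0.12) and -0.91 (SE 0.14).

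Atp5g1, Atp5g2 and Atp5g3 encode the same mature c subunit of the rotating ring behind different import sequences. All were lower in both fractions, at -0.79, -0.64 and -0.63 in CCR7+Il12b- and -1.27, -1.07 and -1.15 in CCR7+Il12b+ cells. The catalytic head is built of alpha and beta subunits. Atp5a1, the alpha subunit, read 9.76, 10.04 and 10.18, then 9.44, 9.54 and 9.37, then 8.96 and 8.99. It fell in steps without overlap, at -0.54 (SE 0.12) and -1.02 (SE 0.14). Atp5b, the beta subunit that makes ATP, read 10.41, 10.52 and 10.67, then 10.43, 10.20 and 10.24, then 9.81 and 10. It differed by -0.24 (95% interval -0.50 to 0.01) in CCR7+Il12b- cells and was lower, at -0.63 (SE 0.13, limma adjusted p = 0.0028) in CCR7+Il12b+ cells. Atp5a1 and Atp5b were not tested against each other. Atp5l, a membrane subunit of the dimer interface, was the complex V gene that passed in neither fraction, at -0.25 and -0.33. In CCR7+Il12b- cells the count of 14 became 7 without immature replicate 2 or 3 and 9 without CCR7+Il12b- replicate 2 or 3, and among the lost calls were those of Atp5o and Atp5g2 without immature replicate 2 or 3.

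The complexes also differed in array signal, so genes of like signal were set side by side. Of the 21 respiratory genes with a mean of 10 or more over all arrays, 12 and 15 were lower, with medians of -0.45 and -0.68. Among all 432 genes of this signal 73 and 134 were lower, with medians of -0.02 and -0.04. Within this band the 8 genes of complex IV had medians of -0.31 and -0.43 and the 11 of complex V -0.53 and -0.79. Among genes with a mean from 8 to 10, the order of complexes IV and V was the same in CCR7+Il12b+ cells. In CCR7+Il12b- cells their medians were close, with that of complex V slightly smaller in size. In this band the 2 genes of complex IV had medians of -0.76 and -0.98. The medians were -0.74 and -1.13 for 6 genes of complex V and -0.84 and -1.33 for 25 of complex I. The part of array signal in the differences between complexes was not tested.

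**Figure D4:**
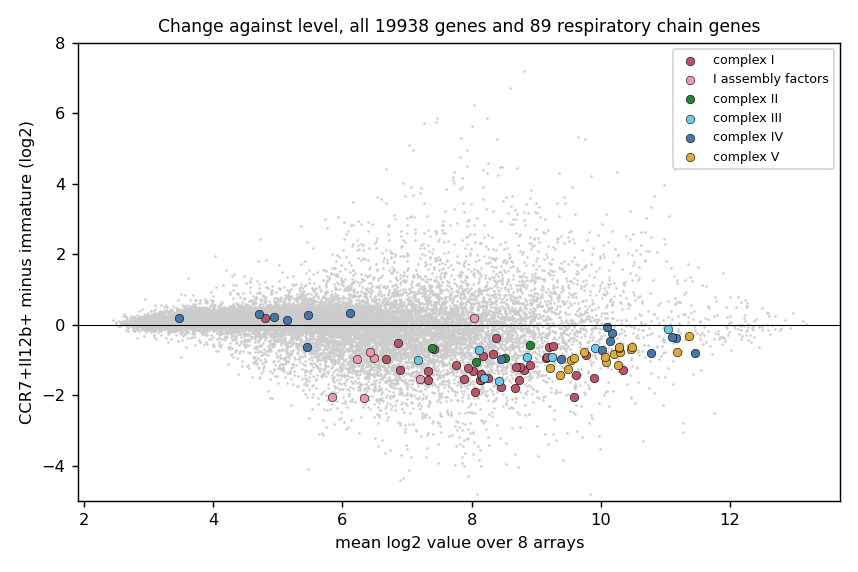
Points are genes, grey for all 19938 tested and coloured for the respiratory chain by complex. The horizontal axis is the mean log2 array signal over 8 arrays and the vertical axis the CCR7+Il12b+ minus immature difference of log2 means, and nearly all coloured points right of 7 lie below 0.

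Between the CCR7+ fractions, 10 of the 89 genes were lower in CCR7+Il12b+ than in CCR7+Il12b- cells and 0 were higher, where 4.47% of all genes were lower and 2.61% higher, and 6.85% and 3.97% of those above the mark. The median log2 difference was -0.28, beside 0.02 over all genes. By symbol, 8 of the 10 were counted in complex I, Ndufc2, Ndufc1, Ndufs3, Ndufb11, Ndufa6, Ndufb10, Ndufb5 and Ndufa4. The others were Ndufaf4 and Sdha. Without Ndufa4, now regarded as a subunit of complex IV, complex I had 7 of 35 genes lower. None of the 10 was 2-fold lower, where 1.52% of all genes were. Complexes III, IV and V, counted by symbol, had no gene called.

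Ndufc2 had the largest fall among subunits between these fractions, at -0.96 (SE 0.18, limma adjusted p = 0.00954), and its call was lost without CCR7+Il12b+ replicate 1 (adjusted p = 0.0949). Ndufaf4 had a difference of -0.98 (SE 0.24), Ndufc1, a small membrane-arm subunit, of -0.91 (SE 0.21), Ndufs3 of -0.80 (SE 0.19) and Ndufb11 of -0.64 (SE 0.13). Ndufc1 read 8.98, 9.53 and 9.66 in immature, 8.97, 8.61 and 8.57 in CCR7+Il12b-, and 7.63 and 7.98 in CCR7+Il12b+ cells. Its difference was -0.67 (95% interval -1.08 to -0.27) from immature to CCR7+Il12b- cells and -0.91 (-1.37 to -0.46) from there to CCR7+Il12b+ cells, intervals that overlap. With the mean of both Ndufc1 rows in place of the brighter one its call was lost, as it was in 4 other alternatives (adjusted p up to 0.166).

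Other subunits, picked here after their values were seen, had nearly all of their difference between immature and CCR7+Il12b- cells. Ndufs5 read 10.42, 10.49 and 10.41 in immature, 9.67, 9.07 and 8.86 in CCR7+Il12b-, and 8.91 and 9.12 in CCR7+Il12b+ cells, and its CCR7+ fractions overlapped, with a difference of -0.18 (95% interval -0.62 to 0.26). Ndufs4, a subunit of the peripheral arm, read 9.61, 9.80 and 9.78, then 9.21, 8.71 and 8.65, then 8.85 and 8.74, and its CCR7+ fractions also overlapped, at -0.06 (95% interval -0.43 to 0.30). Sdha and Atp5b, given above, stood at the other end, with overlap between immature and CCR7+Il12b- cells.

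Single arrays decided this count. It was 1 without CCR7+Il12b- replicate 1, 3 without CCR7+Il12b- replicate 2, 16 without CCR7+Il12b- replicate 3, 2 without CCR7+Il12b+ replicate 1, 4 without CCR7+Il12b+ replicate 2 and 5 without immature replicate 2. For complex I the count of 8 became 1 without CCR7+Il12b- replicate 1 or 2, 2 without CCR7+Il12b+ replicate 1, 3 without CCR7+Il12b+ replicate 2 and 4 without immature replicate 2. None of the 10 calls held in all 20 alternatives, and Sdha lost its call in 13 of them.

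Genes that act with the chain were counted from lists chosen by function, to be read beside the 22.1% and 27.1% of all genes above the mark that were lower in CCR7+Il12b- and CCR7+Il12b+ cells. Of the 13 subunits encoded by mitochondrial DNA, 2 were measured under 1 symbol, ND3 of complex I and COX2 of complex IV. ND3 stayed between 11.89 and 12.03 on all 8 arrays, and COX2 read 12.35 to 12.52 in immature, 12.55 to 12.69 in CCR7+Il12b- and 12.63 and 12.83 in CCR7+Il12b+ cells. Neither passed the threshold, with differences of 0.09 and 0.05 for ND3 and 0.21 and 0.32 for COX2, beside the lower values of most nuclear subunits. Both had high array signal, and nuclear respiratory genes with a mean of 10 or more also had smaller median falls, at -0.45 and -0.68. The part of signal in this contrast was not tested.

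Of 36 measured assembly factors outside the Ndufaf series, 17 were lower and 2 higher in CCR7+Il12b- cells and 17 lower and 4 higher in CCR7+Il12b+ cells. Factors of complex II went both ways. Sdhaf1, which delivers iron-sulfur clusters to Sdhb, rose from 7.63, 7.78 and 7.72 in immature to 9.45, 9.42 and 9.37 in CCR7+Il12b- and 10.39 and 9.64 in CCR7+Il12b+ cells, by 1.70 (SE 0.16) and 2.31 (SE 0.18). Sdhaf4, which helps Sdha to join, fell, at -1.0 (SE 0.25) in CCR7+Il12b- cells, and under the mark on both CCR7+Il12b+ arrays it was at least 2.52-fold lower there. The Sdhaf4 call in CCR7+Il12b- cells was lost without immature replicate 2 or 3. Uqcc2, a factor of complex III, fell, with differences of -0.86 (SE 0.15) and -1.63 (SE 0.17). Tmem126b, of the membrane-arm assembly complex, fell, at -1.11 (SE 0.26) and -1.30 (SE 0.29), the second call being lost without CCR7+Il12b+ replicate 2. Timmdc1, of the same assembly complex as Tmem126b, rose by 0.64 (SE 0.16) and 0.99 (SE 0.18), the first call being lost without CCR7+Il12b- replicate 3 (adjusted p = 0.0539, limma).

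Of 19 genes of electron carriers and ubiquinone synthesis, 5 were lower and 1 higher in CCR7+Il12b- and 8 lower and 1 higher in CCR7+Il12b+ cells, and the count of 5 is near the 22.1% of genes above the mark. Cycs, which is cytochrome c, fell, with differences of -0.72 (SE 0.15) and -1.46 (SE 0.17), and Cyc1, the cytochrome c1 of complex III, at -0.65 (SE 0.12) and -1.05 (SE 0.13). The route from fatty acid oxidation held genes of both directions. Etfb, a subunit of the electron transfer flavoprotein, read 8.20, 8.52 and 8.75 in immature, 7.64, 7.29 and 6.91 in CCR7+Il12b-, and 6.45 and 6.42 in CCR7+Il12b+ cells, and fell, with differences of -1.21 (SE 0.19) and -2.06 (SE 0.21). Etfdh, which passes its electrons on to ubiquinone, read 6.88, 7.23 and 7.19, then 8.13, 8.02 and 8.06, then 8.67 and 8.51, and rose by 0.97 (SE 0.12) and 1.49 (SE 0.13). No group overlapped with another in either gene.

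Of 18 regulators, 4 were lower and 2 higher in CCR7+Il12b- and 5 lower and 1 higher in CCR7+Il12b+ cells. These counts are near the background of 22.1% and 27.1%, so they show nothing about the list, and single genes follow as values. Myc, a growth regulator that also acts on mitochondrial genes, fell, with differences of -1.58 (SE 0.22) and -2.59 (SE 0.25), and Pprc1, a coactivator of the PGC-1 family, at -0.81 (SE 0.16) and -1.58 (SE 0.18). Tfb1m, a methyltransferase of mitochondrial ribosomal RNA, read 5.90, 6.27 and 5.96 in immature and 5.13, 4.71 and 4.77 in CCR7+Il12b- cells, where all but the first lay under the mark. It was called lower in both fractions and was at least 2.09-fold lower in CCR7+Il12b+ cells, where both arrays lay under the mark. Tfam, which packs and transcribes mitochondrial DNA, was at least 1.59-fold lower in CCR7+Il12b+ cells by the same bound (limma adjusted p = 0.00866), a call that was lost without CCR7+Il12b+ replicate 2, and missed the threshold in CCR7+Il12b- cells. Nrf1 rose by 0.33 (SE 0.11) in CCR7+Il12b- cells at an adjusted p of 0.0459 (limma), a call lost when any 1 array of the compared groups was left out and in 4 other alternatives. Gabpb1, a subunit of GABP, was the regulator called higher in both fractions, by 0.63 (SE 0.20) and 0.66 (SE 0.22), at adjusted p of 0.0381 and 0.0407 (limma). Its calls were lost in 6 and 8 of 20 alternatives, among them median centring and leaving out immature replicate 1 or 3 (adjusted p up to 0.123 and 0.266). Gabpa, the other GABP subunit, Esrra, Ppargc1a and Ppargc1b passed in neither fraction.

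Of 22 genes of protein import and of the inner membrane folds, 17 were lower and 0 higher in CCR7+Il12b- and 16 lower and 1 higher in CCR7+Il12b+ cells, with medians of -0.70 and -1.13. Timm9 and Timm10, the small chaperones that carry membrane proteins to the inner membrane, fell, with differences of -1.06 (SE 0.16) and -1.05 (SE 0.17), and then at -1.97 (SE 0.18) and -1.73 (SE 0.19). Tomm5, of the outer pore, fell, with differences of -1.37 (SE 0.28) and -1.94 (SE 0.31). Immt, the core of the MICOS complex that shapes the folds, fell, with differences of -1.19 (SE 0.18) and -1.26 (SE 0.20), while Apool of the same complex rose by 0.46 (SE 0.12) in CCR7+Il12b+ cells, a call lost without CCR7+Il12b+ replicate 1 (adjusted p = 0.065, limma).

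Of 10 genes that restrain respiration or respond to low oxygen, with Atp5md, Cox4i2 and Ndufa4l2 counted again among them, 4 were lower and 0 higher in CCR7+Il12b- and 6 lower and 1 higher in CCR7+Il12b+ cells. Without these subunits and Dmac1, an assembly factor of complex I that the list also held, 6 genes remained, of which 2 were lower in CCR7+Il12b- cells, Higd1a and Pdk1. In CCR7+Il12b+ cells 4 of the 6 were lower, Higd1a, Pdk1, Atpif1 and Lonp1, and Mxi1 was higher. The Atpif1 call was lost without CCR7+Il12b+ replicate 1 and the Mxi1 call in 6 of 20 alternatives. Higd1a, a factor of supercomplexes under low oxygen, fell, with differences of -1.18 (SE 0.23) and -1.25 (SE 0.26). Pdk1, the kinase that shuts pyruvate out of the citric acid cycle, was at least 1.87-fold lower in each CCR7+ fraction, with all of their arrays under the mark. Dmac1 fell, with differences of -0.83 (SE 0.20) and -1.36 (SE 0.22). In CCR7+Il12b- cells the Dmac1 call was lost without immature replicate 3 and the Atp5md call (limma adjusted p = 0.0498) in 12 of 20 alternatives.

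**Figure D5:**
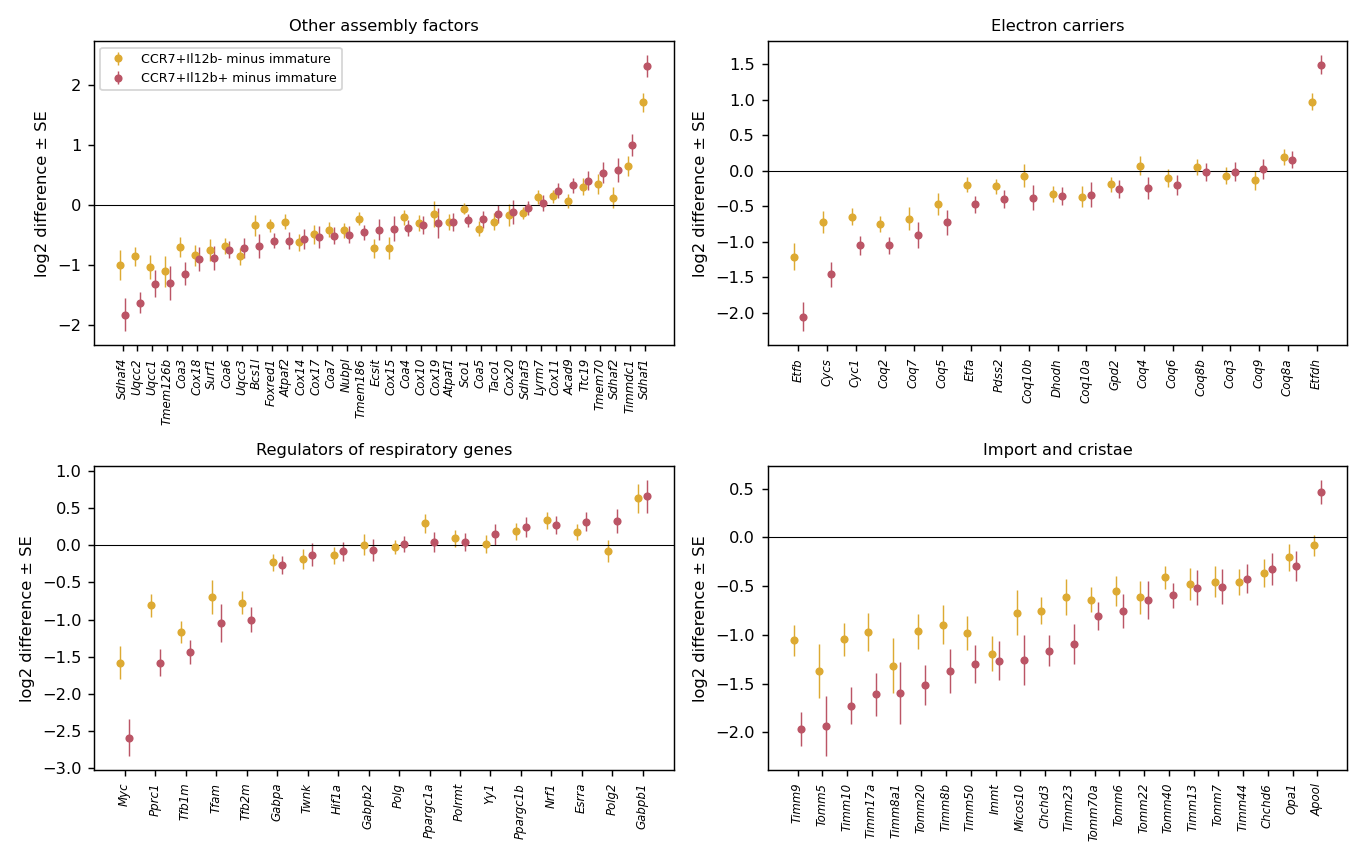
Points are genes of 4 lists of partners of the respiratory chain, with the log2 difference from immature cells and its SE for CCR7+Il12b- (yellow) and CCR7+Il12b+ cells (red). Most import genes lie below 0, while the other lists also hold genes above it, with Sdhaf1 at 1.70 and 2.31 and Etfdh at 0.97 and 1.49.

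Markers of other cells moved with the fractions in part. Their counts are from short lists. Among all genes above the mark, 13% were higher and 22.1% lower in CCR7+Il12b- cells, and 19.3% and 27.1% in CCR7+Il12b+ cells. All 4 measured plasmacytoid markers, Siglech, Tcf4, Ccr9 and Bst2, were lower in both CCR7+ fractions. The Bst2 calls were lost in 5 and 6 of 20 alternatives, among them cyclic loess. The mean of the 4 markers ran from 7.50 to 7.73 on the immature, 6.38 to 6.68 on the CCR7+Il12b- and 6.06 to 6.11 on the CCR7+Il12b+ arrays. Of 5 monocyte and macrophage markers, 3 were higher and 1 lower in CCR7+Il12b- and 2 higher and 2 lower in CCR7+Il12b+ cells, with means of 6.86 to 7.18, 7.86 to 8.03 and 7.54 to 7.65. Spic rose by 3.15 (SE 0.22) and 3.065 (SE 0.24) and Vcam1 by 2.57 (SE 0.17) and 3.17 (SE 0.19). Cd68 fell, with differences of -1.38 (SE 0.21) and -2.67 (SE 0.23). Of 4 B cell markers, 3 were higher in CCR7+Il12b- cells, and 1 was higher and 1 lower in CCR7+Il12b+ cells. Their means were 5.35 to 5.72, 6.13 to 6.40 and 5.60 to 5.82 in the same order of fractions. The part of these cells in the respiratory results was not tested. Of 5 CD11b+ dendritic cell markers, 2 were higher in CCR7+Il12b- cells and 1 in CCR7+Il12b+ cells, where another 1 was lower. T cell, NK cell and neutrophil markers had list means between 4.15 and 4.90 on all arrays, under the mark, though single markers lay above it. Only 2 of 4 T cell, 3 of 4 NK cell and 2 of 5 neutrophil markers had no group mean above the mark. Of the T cell markers, Cd3e was called higher in CCR7+Il12b- cells, by 0.37 (SE 0.12). Cd3d, under the mark, was called lower in CCR7+Il12b+ cells. Of 4 erythroid markers 2 were higher in both fractions, Alas2 by 0.46 (SE 0.10) and 0.55 (SE 0.11) and Car2 by 0.97 (SE 0.12) and 0.79 (SE 0.14). The erythroid mean ran from 4.86 to 5.12 on the immature, 5.37 to 5.44 on the CCR7+Il12b- and 5.38 to 5.51 on the CCR7+Il12b+ arrays, so that the CCR7+ arrays lay above the immature ones and near the mark. Klf1, a defining factor of red cell precursors, had group means under it.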

How the data were processed

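RNA from 8 sorted samples was hybridised to 1 array each. Per the labels' protocols, 3 or 20 ng of RNA went through 2 rounds of amplification, without saying which sample had which input, so an effect of input and of fraction cannot be told apart. The authors deposited log2 values per probe set, made by RMA with oligo per the submitters' processing notes, and no label or header names their versions or a build. Since RMA levels the signal between arrays, more or less RNA in each cell does not show.

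Of 35556 rows, 21789 had 1 symbol in the platform annotation, giving 19938 genes by the brightest row. The genes were chosen from 114 rows, and 6 rows naming a respiratory gene among several symbols were not used. All genes entered 1 limma 3.58.1 fit (R 4.3.3) of 3 group means, two-sided, adjusted with the Benjamini-Hochberg method, with 5 residual and 5.86 prior degrees of freedom, and no gene was removed for low values. SE and 95% intervals come from that fit, whose precision is limited by the few arrays. The background mark is the 95th percentile of the means of 1190 odorant and vomeronasal receptor genes, and 86 respiratory genes had a group mean above it. Where all arrays of the lower group lay under it, the fall is a bound.

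The genes, lists and tests were chosen with earlier results of these data known. Named genes are, per comparison, up to 4 called genes with the largest change of each complex and of the Ndufaf series. The rule also takes the Sdh genes, alternative forms, catalytic core subunits, up to 3 called genes of each partner list and regulators. Ndufaf3, Cox5a, Uqcrh, Cox7a2l, Atp5l, Ndufv3, Cox6c and Ndufs4 were added after their values were seen. So were Gabpb1, Timmdc1, Cyc1, Atpif1, Lonp1, Mxi1 and the named cell type markers, such as Tlr3, Batf3, Xcr1, Alas2 and Car2. Coq2, Uqcc1 and Timm8a1 met the rule in CCR7+Il12b- cells, where they fell, and are not described singly. Alternatives were 2 filters on low values, 3 rescalings, array weights, another prior, replicate blocks, fewer groups, another row rule and leaving out each array.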

Additional observations from a re-analysis of the deposited data

How the results depend on the processing

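No result reversed in the 20 alternatives. In the alternatives that kept all arrays, the median log2 difference of the respiratory genes ran from -0.69 to -0.54 in CCR7+Il12b- against immature cells, from -0.97 to -0.79 in CCR7+Il12b+ against immature cells and from -0.34 to -0.26 between the CCR7+ fractions. Of the falls called, 43 of 67, 59 of 73 and 0 of 10 passed in all 20. With array weights, 1 gene was higher in CCR7+Il12b- cells and 8 of complex IV were lower, and with quantile normalization 1 was higher in CCR7+Il12b+ cells. Between the CCR7+ fractions, the count of 10 became 6 with array weights and 3 with only the 2 groups compared, where complex I had 3. The Ndufaf4 call was lost (0) with median centring, array weights or only the 2 groups compared. The Sdha call was lost (0) with cyclic loess, array weights, another prior, either replicate block or only the 2 groups compared. Quantile normalization called 2 genes of complex V. The causes were not tested.

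With each array left out in turn, lower genes numbered 44 to 71, 63 to 75 and 1 to 16 in the 3 comparisons, and higher ones 0 to 1, 0 to 1 and 0. Medians ran from -0.79 to -0.50, from -0.99 to -0.85 and from -0.41 to -0.21. By complex the lower genes were, in the same order, 24 to 34, 29 to 34 and 1 to 11 in complex I, 5 to 6, 5 to 6 and 0 to 2 in the Ndufaf series, 1 to 3, 3 to 4 and 0 to 1 in complex II, 5 to 7, 6 to 7 and 0 to 1 in complex III, 1 to 6, 3 to 9 and 0 in complex IV, and 7 to 15, 15 to 16 and 0 to 2 in complex V. A lone CCR7+Il12b+ array was assumed to vary like the other groups.

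Replicate numbers are shared between groups, but the labels do not say that they mark pairs, and they were not taken as pairs. Same-numbered arrays correlated from -0.17 to 0.22 in their deviations, not all above 0.1. Between the CCR7+ fractions they correlated at 0.22 and 0.09. With 2 or 3 arrays per group, these values cannot show that pairing is absent. With the number as a fixed replicate block, 60, 70 and 4 genes were lower, with 3 in complex IV in CCR7+Il12b- cells and 3 in complex I between the CCR7+ fractions. As a random block, 63, 71 and 8 were lower. Signal near the background limits the tissue-restricted forms, Ndufaf6 and Cox6b2.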
